A study of Mus musculus with 16 samples.

Results

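The 8 acute-phase genes described here were measured in mouse gastrocnemius, a calf muscle: Saa3, Lcn2, Serpina3n, Hp, Cp, Lrg1, Lbp, and C3. These 8 members were picked by gene symbol out of the 21923 genes in the count table, with their values in these mice already known, so everything said about them here is description. RNA-seq of poly(A) RNA was carried out on 16 mice, 4 in each of 4 groups. NOR mice were normal controls inoculated with PBS and no cells, and they too received daily PBS from day 9. Mice of the CAC group bore a subcutaneous tumor and received PBS intraperitoneally from day 9. AM mice carried the same tumors and received amiloride, a potassium-sparing diuretic, at 2 mg/kg daily from day 9. KD mice were inoculated with tumor cells in which Rab27, a small GTPase of vesicle secretion, had been knocked down with shRNA, and received PBS. In each group 2 mice were labelled C57BL/6 (LLC lung carcinoma as the tumor) and 2 BALB/c (CT26 colon carcinoma), so strain and tumor cannot be told apart. Muscle was taken on day 30. The mice were adult. The labels name male and female BALB/c mice and male C57BL/6 mice, while the study's methods name males. The study asked whether blocking the release of exosomes by the tumor, with the drug or with the knock-down, alters cachexia, the muscle wasting of cancer. The knock-down is in the injected tumor cells, so muscle RNA offers no check of it.

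Acute-phase proteins are secreted into blood during inflammation, for the most part by hepatocytes, and interleukin-6, interleukin-1, and oncostatin M switch on their genes through STAT3, NF-kappaB, and the C/EBP transcription factors. Several are also made outside the liver, by macrophages, fat cells, endothelium, and neutrophils. SAA3 is a serum amyloid A apolipoprotein made mainly outside the liver. Lipocalin-2 (Lcn2) binds iron-carrying siderophores and is stored in neutrophil granules, haptoglobin (Hp) captures free hemoglobin, and ceruloplasmin (Cp) is a copper-carrying ferroxidase. SERPINA3N inhibits serine proteases, LRG1 is a leucine-rich glycoprotein that modifies TGF-beta signaling in vessels, LBP hands bacterial lipopolysaccharide to CD14 and TLR4, and C3 is the central component of complement.

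In the GENCODE M21 annotation of GRCm38 the members lie on 6 chromosomes. Saa3 (ENSMUSG00000040026) is at chr7:46711998-46715700 on the minus strand, Lcn2 (ENSMUSG00000026822) at chr2:32384633-32388252 on the minus strand, and Serpina3n (ENSMUSG00000021091) at chr12:104406729-104414329 on the plus strand. Hp (ENSMUSG00000031722) is at chr8:109575128-109579172 on the minus strand and Cp (ENSMUSG00000003617) at chr3:19957054-20009145 on the plus strand. Lrg1 (ENSMUSG00000037095) is at chr17:56119678-56122001 and C3 (ENSMUSG00000024164) at chr17:57203970-57228136, both on the minus strand, and Lbp (ENSMUSG00000016024) is at chr2:158306493-158332852 on the plus strand. The counts cover whole genes. Of the 31-base words in the transcripts of Serpina3n, 21.63% also occur in transcripts of other genes. The genes with the largest shares were its neighbors Serpina3f (5.9%), Serpina3g, and Serpina3c, so its counts are uncertain where reads were split between paralogs. For Saa3 that share was 7.56%, and for the other 6 members it was 0.9% or less.

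RefSeq promoter windows (GRCm38.p6, 300 bases, from 250 before to 50 after the start of transcription) were given for 6 of the 8 members, all but Hp and Lbp. They are shown for Saa3, Lcn2, and Lrg1, whose levels separated CAC from NOR mice most widely, and for C3, whose levels overlapped between those groups. Capitals mark matches to 4 short patterns searched on both strands: TTNNGNAA for C/EBP, TTCNNNGAA for STAT, CTGGGAAN for the type II interleukin-6 element, and the kappaB consensus. No marked matches of different patterns overlapped.
Saa3 promoter, chr7:46715627-46715926, minus strand: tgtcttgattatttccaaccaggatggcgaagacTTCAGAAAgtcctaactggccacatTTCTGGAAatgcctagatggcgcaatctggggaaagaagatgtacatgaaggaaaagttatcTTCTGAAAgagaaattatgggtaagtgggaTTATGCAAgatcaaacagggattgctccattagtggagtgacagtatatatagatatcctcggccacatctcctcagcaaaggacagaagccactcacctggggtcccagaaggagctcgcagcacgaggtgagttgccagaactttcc
Lcn2 promoter, chr2:32387690-32387989, minus strand: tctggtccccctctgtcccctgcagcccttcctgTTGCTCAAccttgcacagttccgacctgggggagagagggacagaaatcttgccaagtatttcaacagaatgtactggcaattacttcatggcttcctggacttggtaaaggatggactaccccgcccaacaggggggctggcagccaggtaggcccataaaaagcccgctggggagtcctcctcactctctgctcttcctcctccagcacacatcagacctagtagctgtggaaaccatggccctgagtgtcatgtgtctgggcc
Lrg1 promoter, chr17:56121897-56122196, minus strand: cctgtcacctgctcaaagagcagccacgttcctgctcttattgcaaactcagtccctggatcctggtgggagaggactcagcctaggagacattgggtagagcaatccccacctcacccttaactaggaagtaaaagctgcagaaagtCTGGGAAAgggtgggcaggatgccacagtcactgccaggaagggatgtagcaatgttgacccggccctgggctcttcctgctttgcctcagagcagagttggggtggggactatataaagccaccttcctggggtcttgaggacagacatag
C3 promoter, chr17:57228087-57228386, minus strand: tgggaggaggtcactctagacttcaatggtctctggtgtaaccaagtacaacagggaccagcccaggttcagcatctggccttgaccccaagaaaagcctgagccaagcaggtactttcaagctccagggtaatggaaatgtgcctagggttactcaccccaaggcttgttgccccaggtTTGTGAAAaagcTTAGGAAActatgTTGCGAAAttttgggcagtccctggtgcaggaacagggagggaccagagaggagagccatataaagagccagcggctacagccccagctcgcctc

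The Saa3 window held 4 C/EBP matches, the C3 window 3, and the Lcn2 window 1. The Lrg1 window held none of these and 1 match to CTGGGAAN, whose letters ran from 102 to 95 bases before the start. Serpina3n held 2 C/EBP matches and each of the 2 Cp windows held 1. At least 1 C/EBP match was present in 40.7% of all 32851 promoter windows of this length, and a CTGGGAAN match in 11.1%. STAT and kappaB patterns, found in 8.3% and 8.5% of all windows, had no match in any member's window, which says only that those letters are not in these 300 bases. The member with most matches, Saa3, and C3, with nearly as many, lay at opposite ends of the fold changes described next.

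Total counts ran from 35913190 to 61032708 per library, and levels are given as CPM, the count relative to the size of the library after TMM scaling. Skeletal muscle markers were abundant in every library, but 10 of them summed to 61000 to 140000 CPM in CAC mice against 139000 to 195000 CPM in NOR mice. All 10 had a negative log2 fold change in CAC vs. NOR, with a median of -0.67 against 0.01 over all genes tested, and 0 were called. The part of this in the member values was not tested. AM replicate 1 contained liver transcripts: 18 liver markers summed to 2110 CPM there against 46.7 to 553 CPM in the other 15 libraries, and Alb (albumin) stood at 1210 CPM against 0.0459 to 15.4 CPM. The higher of those other sums were mostly Cyp2e1, at 488 of 497 CPM in NOR replicate 4 and 528 of 553 CPM in KD replicate 1. In AM replicate 1 Cyp2e1 was at 232 CPM. Alb was at 15.4 CPM in AM replicate 3 and at 7.49 CPM in NOR replicate 2. Each of these 2 libraries had 1 of the 18 liver markers at 0. Group means and fold changes of the members in AM are therefore given with and without that mouse. Summed lymphocyte markers were under 5 CPM in 5 libraries, NOR replicate 1, CAC replicates 1 and 4, and KD replicates 2 and 3. The labelled strains were not followed by expression. Nnt, Pttg1, Trim12a, and Alad, genes chosen after their values were seen, set CAC replicate 4, AM replicates 1 and 3, and KD replicate 1 apart from the other 12 libraries, with Pttg1 at 1.12 to 4.79 CPM against 31.6 to 59.8 CPM and Nnt at 44.0 to 112 CPM against 5.73 to 21.5 CPM. Of these 4 libraries 2 are labelled C57BL/6 and 2 BALB/c, and no NOR library is among them. The Y-linked Ddx3y was at 0 in KD replicate 3 and at 46.8 to 89.7 CPM in the other 15. Values by labelled strain below are values by label.

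Saa3 was close to absent in normal muscle and present in every CAC mouse. It measured 0, 0.15, 0.0807, and 0.0516 CPM in the 4 NOR mice, 16 counts in all, and the library at 0 allows up to 0.0777 CPM (3 counts, counting error only). In CAC mice it measured 8.03, 3.31, 38.3, and 16.3 CPM, so the lowest CAC mouse stood far above the highest NOR mouse. In AM mice it measured 0.288, 0.198, 0.59, and 0.107 CPM, and in KD mice 0.174, 0.199, 0, and 0.55 CPM. Every AM and KD mouse lay below every CAC mouse, and both groups overlapped the NOR range, although 3 of 4 mice in each lay above its highest mouse. Means were 0.0707 ± 0.0628 CPM for NOR (SD, n = 4), 16.5 ± 15.5 CPM for CAC, 0.296 ± 0.21 CPM for AM, and 0.231 ± 0.231 CPM for KD. Without AM replicate 1 the AM mean was 0.298 ± 0.257 CPM (n = 3), so the level hardly changed without the mouse with liver transcripts. The KD library at 0 allows up to 0.0558 CPM. The Saa3 count rested on 3604 reads over the 4 CAC libraries, 53 over AM, and 47 over KD.

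Lcn2 rose in CAC mice and was within the CAC range in 3 of 4 AM mice and 3 of 4 KD mice. NOR mice measured 0.699, 1.05, 2.14, and 4.52 CPM, and CAC mice 28.1, 14.4, 30.3, and 139 CPM. AM mice measured 23.3, 17.2, 26, and 2.3 CPM, and KD mice 24.6, 16.4, 2.18, and 24.5 CPM. Those 3 mice of each group lay above all NOR mice, while AM replicate 4 and KD replicate 3 lay within the NOR range. CAC replicate 4 held more than 4 times the Lcn2 of any other mouse. Without AM replicate 1 the AM mean went from 17.2 ± 10.6 (n = 4) to 15.2 ± 12 CPM (n = 3). Summed over 12 neutrophil markers, NOR mice had 9.61 to 44.8 CPM, CAC mice 129 to 294 CPM, AM mice 23.9 to 316 CPM, and KD mice 18.2 to 442 CPM. The lowest sums among tumor-bearing mice were those of AM replicate 4 and KD replicate 3, the same mice in which Lcn2 was lowest. The highest sums in AM and KD, those of AM replicate 3 and KD replicate 1, included Ngp at 78.2 and 95.8 CPM. Mpo was at 36.5 and 26.6 CPM there. In AM vs. CAC the list was mixed, with 7 markers negative, such as Mmp8 at -2.1 (FDR 0.123), and 5 positive, such as Mpo at 2.74 (FDR 0.303). All 12 neutrophil markers had a positive fold change in CAC vs. NOR and 5 of them rose (Mmp8, Retnlg, Csf3r, S100a8, and S100a9), against 4.32% of all genes tested, with Mmp8 past the filter on low counts through the CAC libraries alone. Whether more neutrophils or more Lcn2 RNA per cell lay behind the level cannot be told apart in bulk muscle RNA, and the same holds for every gene here.

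Lrg1 had the tightest CAC group. It measured 28.7, 47.3, 53.2, and 80.1 CPM in NOR mice and 183, 164, 144, and 271 CPM in CAC mice, with no overlap. AM mice measured 171, 178, 130, and 59.5 CPM and KD mice 104, 187, 105, and 102 CPM. All 4 KD mice and 3 of 4 AM mice exceeded the highest NOR mouse. Means were 52.3 ± 21.2 CPM for NOR, 191 ± 55.9 CPM for CAC, 135 ± 54.4 CPM for AM, and 125 ± 41.6 CPM for KD (SD, n = 4), and 123 ± 59.6 CPM for AM without replicate 1 (n = 3). AM replicate 4 was the lowest of the tumor-bearing mice.

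Serpina3n measured 6.06, 22.9, 22, and 48.6 CPM in NOR mice and 73.8, 52, 69.3, and 301 CPM in CAC mice. The groups were separate, by a narrow margin between NOR replicate 4 and CAC replicate 2. AM mice measured 112, 59.3, 86.9, and 31.4 CPM, and KD mice 107, 9.56, 3.68, and 72.7 CPM. KD replicates 1 and 4 lay within the CAC range, KD replicate 2 lay below 3 of the 4 NOR mice, and KD replicate 3 lay below all of them. The AM mean was 72.3 ± 34.7 CPM (n = 4), and 59.2 ± 27.8 CPM without AM replicate 1 (n = 3).

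Hp spread more widely within groups than between them. NOR mice measured 35.5, 106, 45.3, and 192 CPM, CAC mice 56.9, 139, 155, and 509 CPM, AM mice 208, 178, 70.9, and 105 CPM, and KD mice 131, 42.1, 12.2, and 374 CPM. The groups overlapped throughout, and the KD mice alone spanned a 30.7-fold range. The AM mean of Hp was 141 ± 63.5 CPM (n = 4), and 118 ± 54.9 CPM without AM replicate 1 (n = 3). C3 spread likewise, with NOR mice at 158, 456, 499, and 634 CPM, CAC mice at 301, 404, 881, and 705 CPM, AM mice at 1220, 687, 613, and 446 CPM, and KD mice at 1050, 99.8, 158, and 597 CPM. The highest C3 value of all was that of AM replicate 1, and without it the AM mean went from 742 ± 335 (n = 4) to 582 ± 124 CPM (n = 3).

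Cp and Lbp were the members that varied least in normal muscle. Cp measured 22.9, 36.3, 35.6, and 36.6 CPM in NOR mice and 40.2, 39.8, 64.4, and 86.2 CPM in CAC mice. AM mice measured 73.4, 56.8, 42.9, and 38 CPM, all above the NOR mice, and KD mice 52.5, 36.1, 28.5, and 38.5 CPM. Lbp stayed between 30.3 and 32.1 CPM in the 4 NOR mice and measured 54.8, 43.7, 37.2, and 116 CPM in CAC mice. In AM mice Lbp was 94.9, 55.7, 100, and 27 CPM and in KD mice 64.5, 42, 31.9, and 38 CPM. The Lbp values of 94.9 CPM and 100 CPM belong to AM replicates 1 and 3, which together with CAC replicate 4 and KD replicate 1 form the set with low Pttg1. Those 4 libraries held the highest Lbp value of their group in CAC and KD and the highest pair in AM. The AM mean of Cp went from 52.8 ± 15.9 (n = 4) to 45.9 ± 9.75 CPM (n = 3) without AM replicate 1, and that of Lbp from 69.4 ± 34.5 to 60.9 ± 36.8 CPM. What part the set or the liver transcripts had in these values was not tested.

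**Figure D1:**
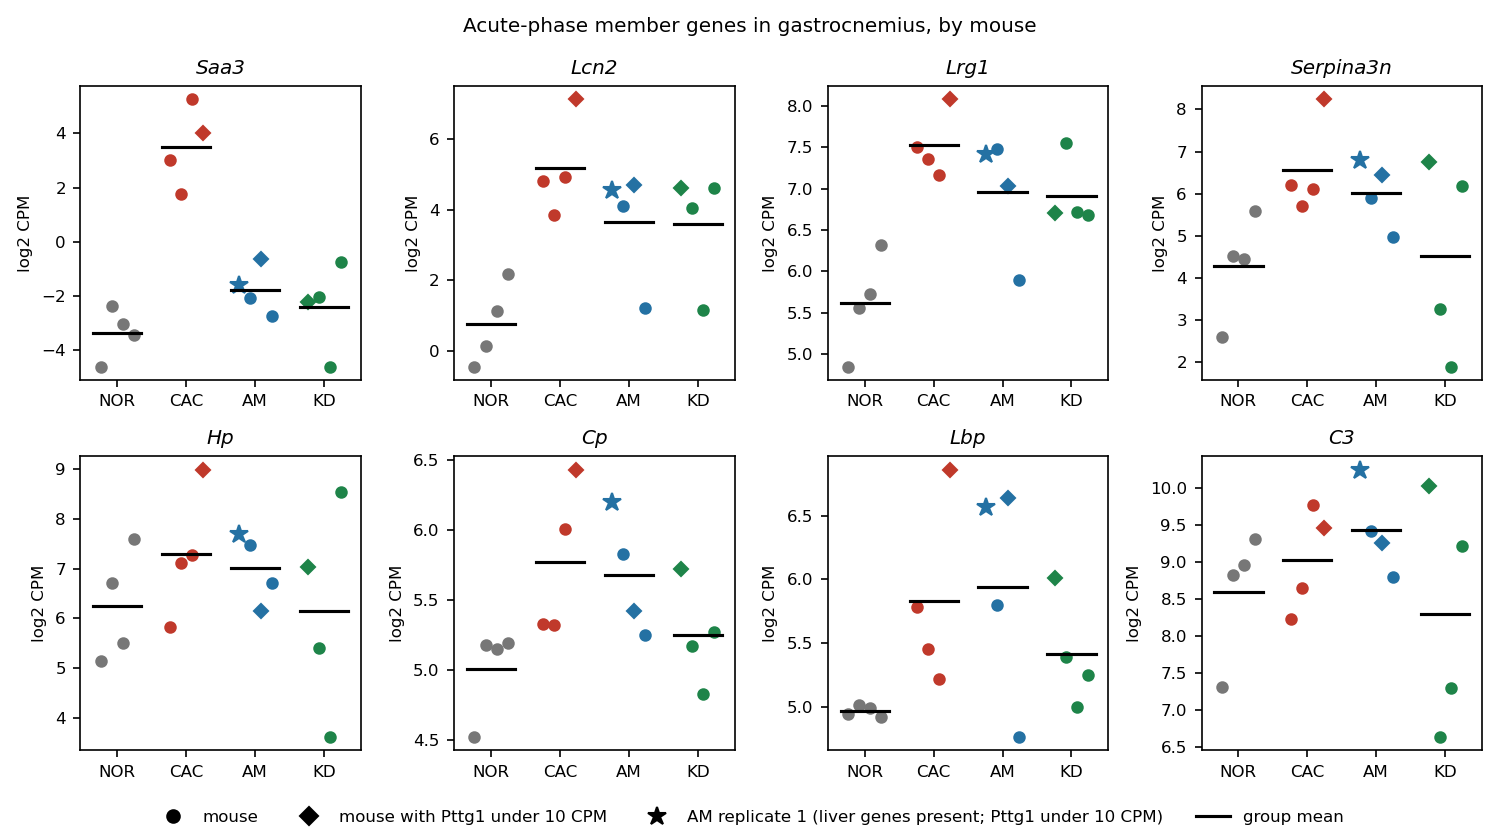
Level of each member gene as log2 CPM in each mouse (prior count 2), by group, with the group mean as a line, diamonds for libraries with Pttg1 under 10 CPM, and a star for AM replicate 1. Saa3 is at 0.59 CPM or less in all AM and KD mice, whereas Lcn2 and Lrg1 stay above the NOR range in most of them, and Hp and C3 spread over all groups.

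Between genes, levels can be compared only per transcript length, as deposited FPKM. C3 was the most abundant member in all 4 groups, at 216 ± 105 FPKM in NOR and 315 ± 182 FPKM in CAC (SD, n = 4). Hp was next, at 69.9 ± 55 and 171 ± 158 FPKM, and then Lrg1, at 36.6 ± 16.1 and 142 ± 41.2 FPKM. These neighbors in the order differed by less than their spread in CAC mice. Saa3 was the least abundant member in every group, at 0.0525 ± 0.0457 FPKM in NOR and 13.7 ± 14.5 FPKM in CAC. Lcn2 went from rank 7 of 8 in NOR, at 2.29 ± 1.93 FPKM, to rank 5 in CAC, at 61.8 ± 67.1 FPKM, close to Serpina3n at 63.7 ± 60.9 FPKM. In AM and KD mice Lcn2 was at 19.5 ± 12.3 and 18.9 ± 13 FPKM, and at 16.5 ± 13.2 FPKM without AM replicate 1 (n = 3).

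In CAC vs. NOR all 8 members had a positive log2 fold change by edgeR's quasi-likelihood test, with a median of 1.53 against 0.01 over all genes tested. Saa3 differed most, with a log2 fold change of 7.76 ± 1.03 (SE) and an FDR of 0.00416 over all 14666 genes tested. Saa3 passed the filter on low counts through the CAC libraries alone, so in any comparison where it could be tested it had to differ, and its fold changes depend on the few counts of the other group. Lcn2 followed at 4.65 ± 0.895 (FDR 0.0141) and Lrg1 at 1.87 ± 0.306 (FDR 0.0084). Those 3 of 8 members passed the limits of FDR 0.05 and 1.5-fold, against 4.32% of all genes tested that rose, and 6 of 8, all but Hp and C3, had groups without overlap, against 12.5% of all genes. Because the members were chosen with these values known, the shares carry no weight as evidence. Serpina3n (log2 fold change 2.33 ± 0.73), Lbp (1.01 ± 0.326), and Cp (0.82 ± 0.272) had FDRs of 0.0689, 0.076, and 0.0815. Hp, at 1.19 ± 0.728, and C3, at 0.41 ± 0.454, had FDRs of 0.322 and 0.614. With DESeq2 6 members passed among 1921 genes of all, and with the labelled strain as a covariate 5 did among 1492. Saa3 did not pass with limma-voom (FDR 0.136) or in the C57BL/6-labelled mice alone (FDR 0.0964), nor did Lcn2 without the 5 libraries low in lymphocyte markers (FDR 0.0579) or without NOR replicate 3 (FDR 0.0513). In the BALB/c-labelled mice alone 0 members passed, as did 0 of all genes there by edgeR. Leaving out CAC replicate 4 gave a log2 fold change of 3.54 for Lcn2, 1.4 for Serpina3n, and 0.33 for Hp, and leaving out NOR replicate 4 gave 5.33 for Lcn2 and 1.79 for Hp. For Saa3 the value was 6.9 without CAC replicate 3 and 8.4 without NOR replicate 2.

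In AM vs. CAC only Saa3 passed the limits, with a log2 fold change of -5.8 ± 0.902 (FDR 0.0137), 1 of 8 members against 2.03% of all 14674 genes tested that fell. It was also the 1 member whose groups did not overlap, against 9.27% of all genes. Without AM replicate 1 the value was -5.78 ± 1.09 (FDR 0.0473), again the 1 member called, against 1.07% of all genes that fell. The call was lost with limma-voom (log2 fold change -5.51, FDR 0.173), which called 553 genes of all, and without the 5 libraries low in lymphocyte markers (-6.14, FDR 0.0711), where 18 genes were called. It was also lost with the replicate number as a block (-5.52, FDR 0.0793) and without the 4 libraries with low Pttg1 (-6.82, FDR 0.147), where 0 genes of all were called by edgeR. Without CAC replicate 3 the value of Saa3 was -4.92, and it was still called. The next lowest members were Lcn2 at -1.61 ± 0.843 (FDR 0.318), Serpina3n at -0.76 ± 0.608 (FDR 0.527), and Hp at -0.6 ± 0.626 (FDR 0.64). Lrg1 and Cp were at -0.49 ± 0.335 and -0.12 ± 0.304, and Lbp and C3 had the opposite sign, at 0.15 ± 0.468 and 0.37 ± 0.416. With AM replicate 1 left out the values were -1.8 ± 0.991 for Lcn2, -1.07 ± 0.677 for Serpina3n, -0.87 ± 0.698 for Hp, -0.64 ± 0.371 for Lrg1, -0.34 ± 0.304 for Cp, -0.05 ± 0.52 for Lbp, and 0.01 ± 0.383 for C3. Leaving out CAC replicate 4 gave -0.5 for Lcn2, 0.15 for Serpina3n, and 0.25 for Hp. This comparison shares its CAC libraries with the one before.

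In KD vs. CAC no member passed, among 1 gene in all, 0.00685% of the 14593 tested. All 8 log2 fold changes were negative. Saa3 had the largest, -6.14 ± 1.15, at an unadjusted p of 0.000553 and an FDR of 0.231 by edgeR, with groups that did not overlap, as for 3.58% of all genes. It was the only member with an unadjusted p of at most 0.05, as had 11.1% of all genes. DESeq2, which called 329 genes, gave Saa3 an FDR of 2.4e-08, and a fit of all 16 libraries, which called 145, an FDR of 0.0259. Lcn2 was at -1.64 ± 0.861 (FDR 0.526), Serpina3n at -1.35 ± 1.02, and the remaining 5 members between -0.62 and -0.27. Leaving out CAC replicate 4 gave -0.52 for Lcn2, -0.42 for Serpina3n, and 0.25 for Hp. Without the 5 libraries low in lymphocyte markers the sign turned for Lcn2 (0.11), Serpina3n (0.54), Hp (0.75), Lbp (0.32), and C3 (0.33). Serpina3n was at -2.12 and C3 at -1.02 without KD replicate 1, and Saa3 at -7.08 and Hp at -1.81 without KD replicate 4, while Saa3 was at -5.28 without CAC replicate 3. The CAC libraries are those of the comparisons before.

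Against NOR, Saa3 was too low for the test in AM and KD mice, and none of the other 7 members passed in AM vs. NOR or KD vs. NOR, as was true of all genes (0% of 14738 and 0% of 14748). All 7 were positive in both, with medians of 1.17 in AM and 0.57 in KD, against 0.02 over all genes in each. The 2 comparisons share their NOR libraries. In KD vs. NOR some signs turned under other settings, as with limma-voom for Hp (-0.07) and C3 (-0.3). In AM vs. NOR the log2 fold change of Lcn2 was 3.04 ± 0.798, of Serpina3n 1.56 ± 0.585, of Lrg1 1.38 ± 0.388, of Lbp 1.17 ± 0.359, and of Cp 0.7 ± 0.234, each with an unadjusted p of at most 0.05, as had 9.19% of all genes, and an FDR of 0.518 to 0.531. Cp was the 1 member without overlap, as were 2.29% of all genes. C3 was at 0.79 ± 0.434 and Hp at 0.59 ± 0.552. Without AM replicate 1 the values were 2.84 ± 0.86 for Lcn2, 1.25 ± 0.611 for Serpina3n, 1.23 ± 0.419 for Lrg1, 0.96 ± 0.362 for Lbp, 0.48 ± 0.201 for Cp, 0.41 for C3, and 0.32 for Hp. Of the 5 members 4 then kept an unadjusted p of at most 0.05, and Serpina3n had an unadjusted p of 0.0773 and an FDR of 0.851 by edgeR. In KD vs. NOR Lcn2 was at 3.01 ± 0.819, Lrg1 at 1.26 ± 0.328, and Lbp at 0.5 ± 0.207, each with an unadjusted p of at most 0.05, as had 3.54% of all genes, and an FDR of 0.999, and Lrg1 was the 1 member without overlap, as were 1.31% of all genes. DESeq2 called Lcn2 and Lrg1 among 70 genes in AM vs. NOR and Lcn2 among 31 in KD vs. NOR. In AM vs. KD the 7 log2 fold changes lay between 0.02 and 0.66, with FDRs of 1, and 0 members passed, as did 0% of 14745 genes. They were, without AM replicate 1, -0.16 for Lcn2, -0.25 for Hp, and -0.03 for Lrg1, and 0.23 to 0.46 for the remaining 4.

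**Figure D2:**
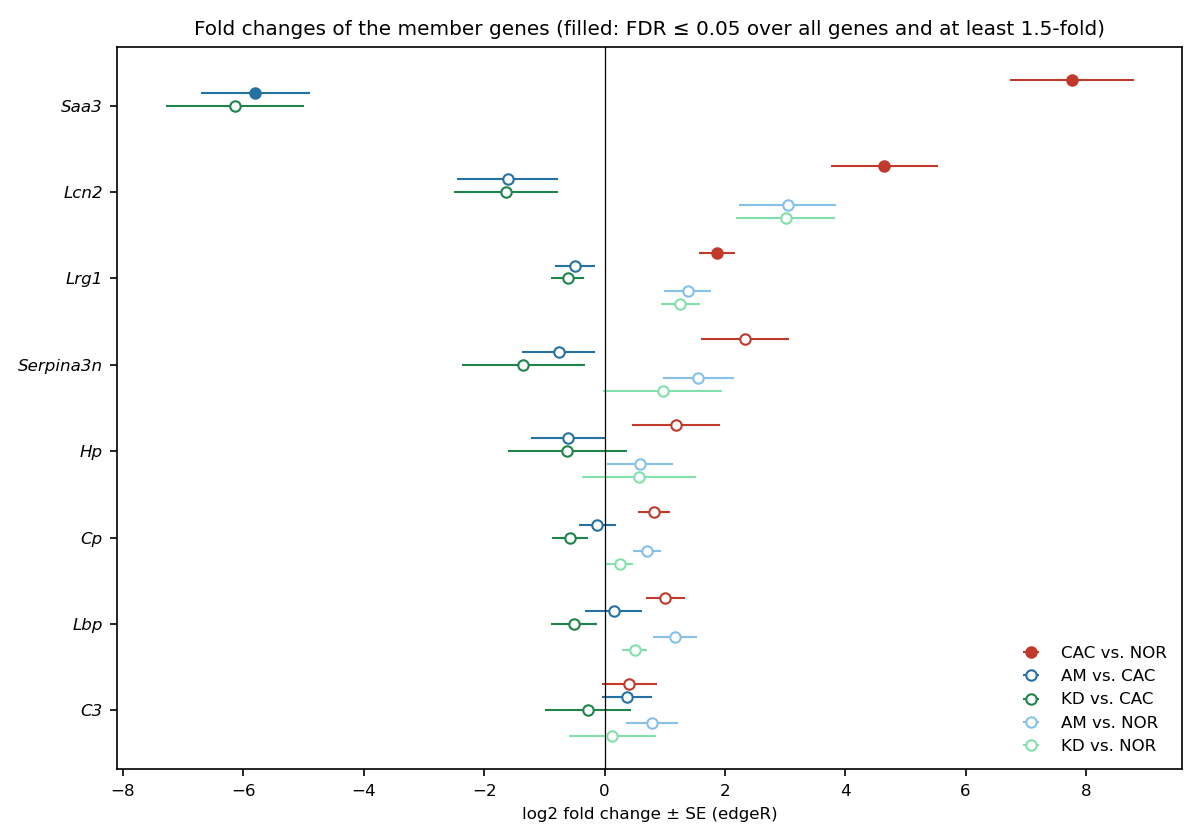
Log2 fold change with its standard error for each member gene in 5 comparisons, from edgeR, with filled points for values past an FDR of 0.05 over all genes and 1.5-fold. Saa3 has no point in AM vs. NOR and KD vs. NOR because it was too low there, and the values of Lcn2 and Lrg1 against NOR stay positive in AM and KD mice.

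Split by labelled strain, the mean difference in AM vs. CAC had opposite signs under the 2 labels for 6 of 8 members, all but Saa3 and Lcn2. Of these Lrg1 was at only 0.01 under the C57BL/6 label. For Hp, Cp, and C3 each AM mouse followed the sign of its label. The share of all genes with such signs was not counted, so these counts are description. Cp measured 73.4 and 56.8 CPM in the C57BL/6-labelled AM mice against 40.2 and 39.8 CPM in the CAC mice of that label, and 42.9 and 38 CPM against 64.4 and 86.2 CPM under the BALB/c label. The interaction (C57BL/6 effect minus BALB/c effect, log2) was 1.64 ± 0.261 for Cp, with an unadjusted p of 0.000591 and an FDR of 0.232 by edgeR, 2.07 ± 0.488 for C3 (FDR 0.295), and 2.91 ± 0.884 for Hp (FDR 0.34). No gene of 14674 passed an FDR of 0.05 in that test, nor did any in CAC vs. NOR or KD vs. CAC. An unadjusted p of at most 0.05 by edgeR was reached by 12.4% of all genes in AM vs. CAC. The shares were 4.89% in CAC vs. NOR and 5.65% in KD vs. CAC. Each label holds 2 mice a group, AM replicate 1 with its liver transcripts is among the C57BL/6-labelled, and the labels did not match the expression of Nnt and Pttg1.

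Across the 16 mice the members fell along different lines. Pearson's r of log2 CPM was 0.895 between Lcn2 and Lrg1, 0.843 between Serpina3n and Hp, and 0.822 between Serpina3n and C3, but 0.223 between Lrg1 and C3 and 0.341 between Saa3 and C3. These are descriptions over mice that share groups and, in places, the traits noted above. The genes most like Saa3 were Trnau1ap (r = 0.929), Arhgap26, and Eif4ebp1. For Lcn2 they were Fpr2 (r = 0.971), Cd177 (0.962), and Chil1 (0.955), and for Lrg1 Cldn15 (0.946), Gda, and Gpr182. For Serpina3n they were Igsf6 (0.954), Clec4a3, and Tlr13, and for Hp Gusb (0.951), Lyz2, and Snx1. Cp was most like Clic1 (0.95), Nfkb2, and Atf6b, Lbp most like Fjx1 (0.927), Eif3j2, and Nt5e, and C3 most like Rasa3 (0.971), Sec61a1, and Soat1. Without AM replicate 1 at least 2 of the 3 genes were the same for every member except Cp, where 1 was.

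NOR replicate 1 and KD replicates 2 and 3 had the 3 lowest values of Hp, of C3, and of Serpina3n. The sum of 10 adipocyte markers was 472 CPM in NOR replicate 1 and 520 and 670 CPM in KD replicates 2 and 3, against 3530 CPM in NOR replicate 4 and 3950 and 3210 CPM in KD replicates 1 and 4. NOR replicate 4 had the highest Hp, C3, and Serpina3n of its group, and KD replicates 1 and 4 exceeded the other two KD mice in all 3 genes. In macrophage markers NOR replicate 1 and KD replicates 2 and 3 were also the lowest of the 16, at 230, 247, and 112 CPM. All 3 are among the 5 libraries low in lymphocyte markers, with sums of 3.29, 0.497, and 0.577 CPM. In CAC the adipocyte sums were 425, 1460, 4670, and 1900 CPM in replicates 1 to 4. Their order was that of C3 in these mice, whereas Hp and Serpina3n were highest in replicate 4. In AM the order differed for all 3 genes, since replicate 2 had 4470 CPM and replicate 1, above it in all 3 genes, 1410 CPM. Macrophage markers summed to 230 to 710 CPM for NOR mice, 558 to 884 CPM for CAC, 525 to 770 CPM for AM, and 112 to 993 CPM for KD. Endothelial markers summed to 1150 to 1680 CPM for NOR mice, 1450 to 1980 CPM for CAC, 1480 to 1720 CPM for AM, and 1170 to 1950 CPM for KD. Of the 8 endothelial markers 2 rose in CAC vs. NOR, against 4.32% of all genes, and were without overlap, against 12.5%: Vwf by 0.87 (FDR 0.0117) and Pecam1 by 0.77 (FDR 0.0126). The median of the 8 was 0.25, and Kdr, Cdh5, and Emcn were at -0.91 (FDR 0.115), -0.08, and -0.04. Fibroblast markers summed to 3320 to 4340 CPM for NOR mice, 1140 to 1740 CPM for CAC, 2700 to 3660 CPM for AM, and 1140 to 4480 CPM for KD, where replicates 2 and 3 had 1370 and 1140 CPM. The lower sums in CAC lay mostly in the collagens Col1a1, Col1a2, and Col3a1. Their means were 661, 866, and 909 CPM in NOR and 54.7, 101, and 114 CPM in CAC. Dcn was at 956 and 859 CPM. Col1a1, Col1a2, Col3a1, and Dpt fell in CAC vs. NOR and rose in AM vs. CAC, with and without AM replicate 1. The share of all genes called in those directions is not given here, so their number has no baseline. The remaining fibroblast markers were not called in CAC vs. NOR. Lum was at -1.11 (FDR 0.0613), Mfap5 at -0.48, Pdgfra at -0.42, Dcn at -0.16, Cd34 at -0.07, and Ly6a at 0.31. In KD vs. CAC no fibroblast marker passed, where 1 gene of all did. What part these cell types had in the member genes was not tested.

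**Figure D3:**
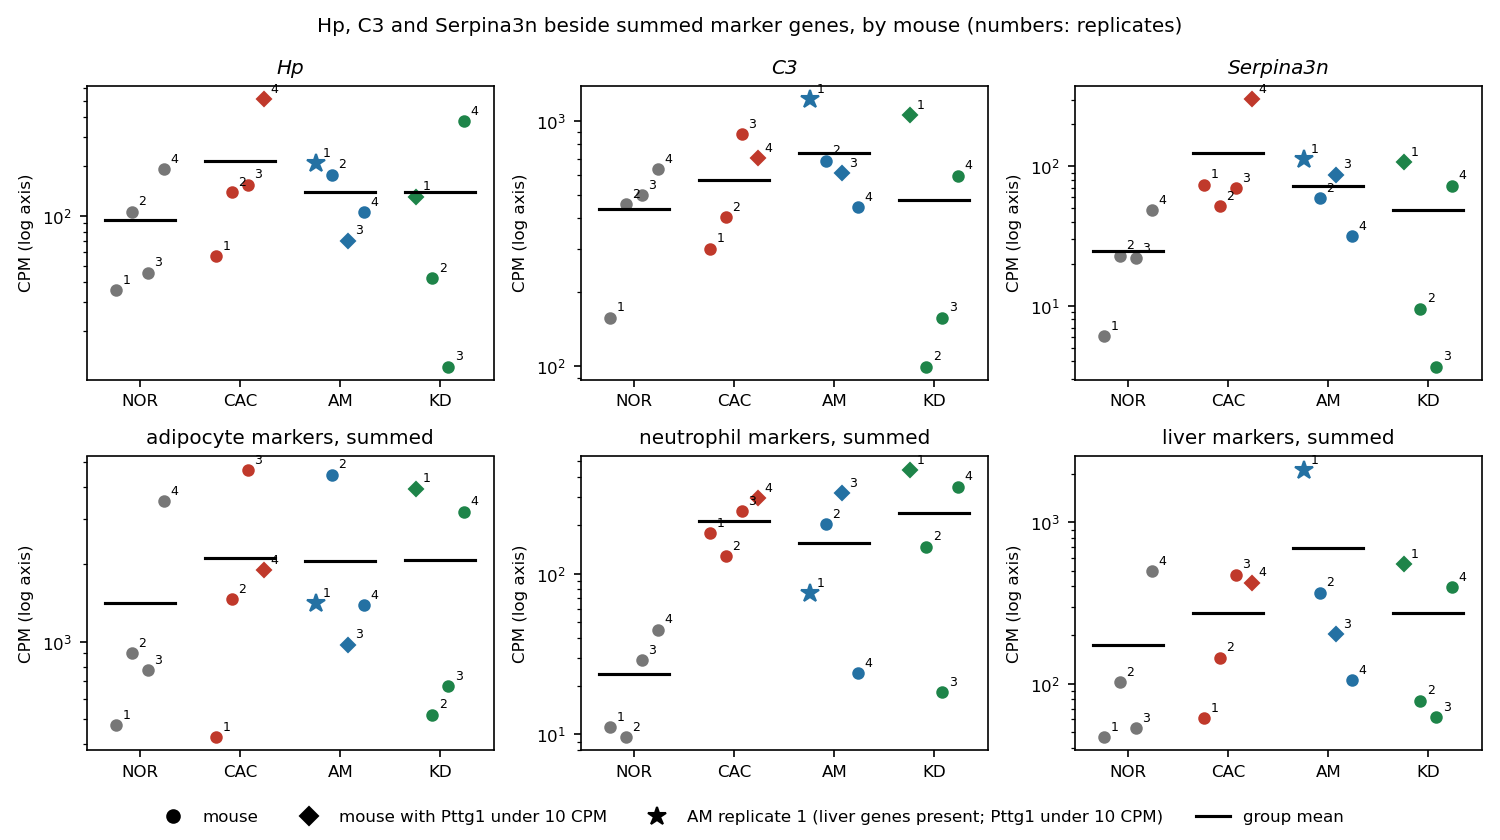
CPM of Hp, C3, and Serpina3n (upper row) and summed CPM of adipocyte, neutrophil, and liver marker genes (lower row) in each mouse, on log axes, with replicate numbers beside the points, group means as lines, and the same symbols as in the plot of members by mouse. NOR replicate 1 and KD replicates 2 and 3 are low in C3, Serpina3n, and adipocyte markers. CAC replicate 1 has the lowest adipocyte sum of all, 425 CPM, but Serpina3n at 73.8 CPM, above every NOR mouse. AM replicate 1 stands apart in liver markers.

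A list of 28 other positive acute-phase genes showed which of this program was measurable in muscle. In CAC vs. NOR 18 could be tested, 5 rose (Mt1, Mt2, Ctsl, Itih4, and Saa1) against 4.32% of all genes, 1 fell (Ptx3), and 17 had a positive sign, with a median log2 fold change of 1.17. Mt2, a metal-binding metallothionein, went from 5.28, 5.5, 8.05, and 21.2 CPM in NOR to 154, 150, 177, and 600 CPM in CAC, a log2 fold change of 4.76 ± 0.697 (FDR 0.00567). Its partner Mt1 rose by 3.88 ± 0.726 (FDR 0.0129). In AM mice Mt2 measured 16.6, 12, 32.5, and 19.5 CPM, a fall of 3.74 on the log2 scale from CAC (FDR 0.012, or 0.0442 without AM replicate 1), and Mt1 fell too, by 3.43 (FDR 0.0202, or 0.0626 without AM replicate 1). KD mice had Mt2 at 10.9, 52.4, 8.37, and 18.5 CPM, a log2 fold change of -3.58 ± 0.754 with an FDR of 0.231. Like Saa3, Mt1 and Mt2 were higher in each CAC mouse than in any other mouse. Ptx3, a long pentraxin, fell by 2.04 in CAC vs. NOR (FDR 0.0131).

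Ctsl, a lysosomal protease, rose by 1.15 ± 0.305 (FDR 0.0408) and Itih4, a plasma inhibitor heavy chain, by 2.29 ± 0.608 (FDR 0.0408). The complement genes C4b, Cfb, and Serping1, among the most abundant of the list, had FDRs of 0.414, 0.346, and 0.648, and Steap4, a metalloreductase, 0.918. The classical hepatic serum amyloids were nearly absent. Saa1 measured 0.0835 to 0.259 CPM in NOR and 0.425 to 1.61 CPM in CAC, a log2 fold change of 2.56 ± 0.553 (FDR 0.0206) that rests on low counts. Saa1 and Itih4 passed the filter on low counts through the CAC libraries alone, as Saa3 did, so their place among the 5 carries less weight. In AM mice Saa1 was 34.3, 0, 0.717, and 0.0644 CPM and Saa2 40.6, 0, 0.527, and 0 CPM, so both were high in AM replicate 1 alone. In that mouse Saa3 stood at 0.288 CPM.

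**Figure D4:**
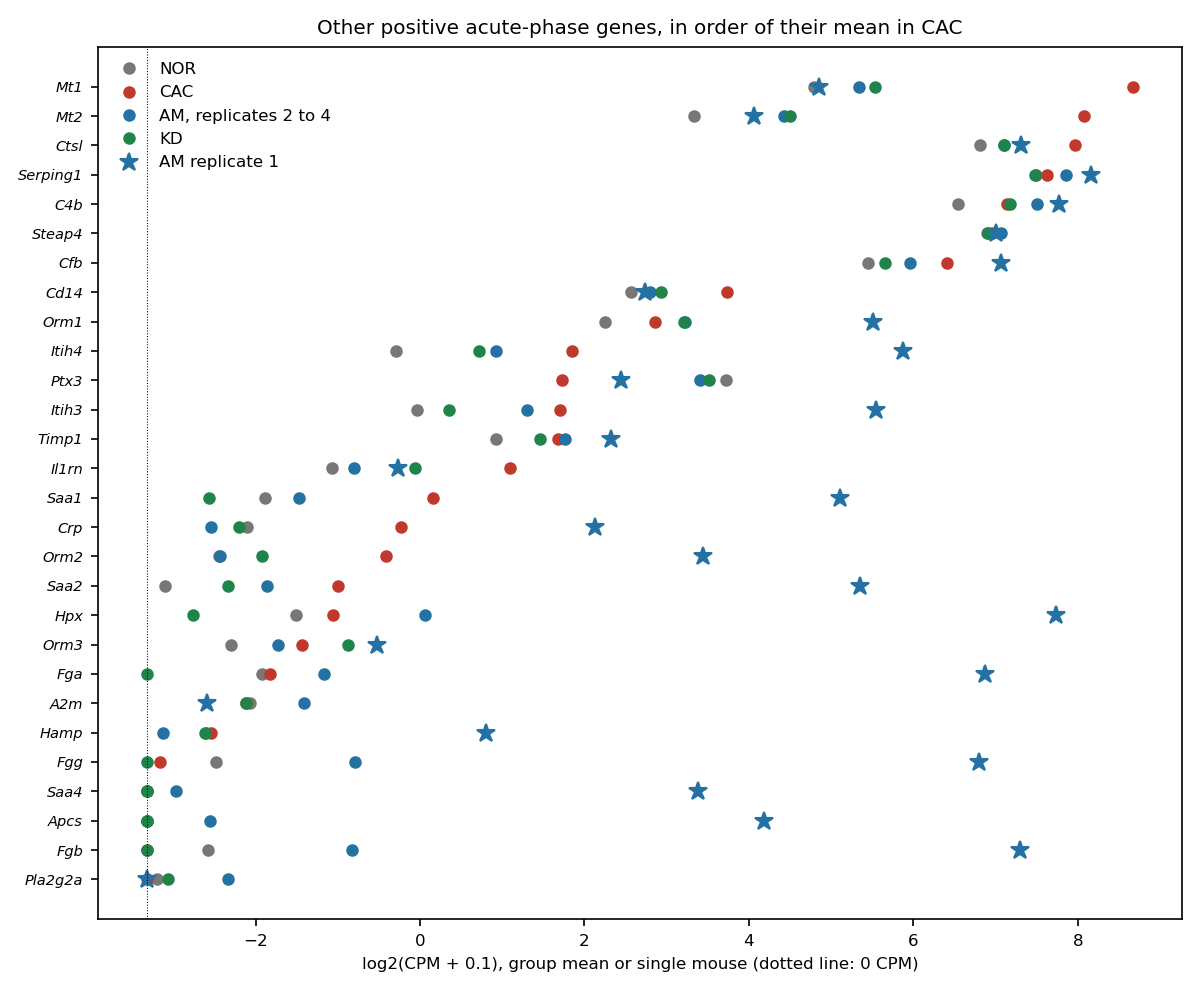
Log2(CPM + 0.1) of 28 other positive acute-phase genes, as means of NOR, CAC, and KD mice and of AM replicates 2 to 4, with AM replicate 1 as a star, in order of the CAC mean. Mt1 and Mt2 are high in CAC mice only, and the fibrinogen genes, Hpx, Saa1, Saa2, and Orm1 are highest in AM replicate 1.

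Among 10 paralogs of Serpina3n, 9 were in the table and 6 were tested in CAC vs. NOR, where 1 rose, against 4.32% of all genes. This was Serpina3m, by 2.43 ± 0.592 (FDR 0.0306), at levels of 0.155 to 0.911 CPM in NOR and 1.7 to 3.42 CPM in CAC, and it too passed the filter through the CAC libraries alone. Serpina3g reached 95.2 CPM and Serpina3f 30.4 CPM in CAC replicate 3 and were near 0 in CAC replicate 1, a spread unlike that of Serpina3n. Serpina3c measured 13.1 ± 14 CPM in NOR and 13.6 ± 8.06 CPM in CAC. Serpina3k was at 123 CPM in AM replicate 1, at 16.5 CPM in CAC replicate 3, and at 7.56 CPM or less in the other 14 mice.

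Of 22 genes in the pathway that switches on acute-phase genes, 21 were tested in CAC vs. NOR and 8 rose, against 4.32% of all genes, with none falling. Il6ra, the interleukin-6 receptor, measured 8.93, 15.5, 18.5, and 22.5 CPM in NOR mice and 50.4, 65.5, 79.4, and 72 CPM in CAC mice, without overlap. AM mice had 28.5, 18, 19.7, and 18.8 CPM and KD mice 18.1, 22.9, 20.6, and 19.9 CPM. It rose in CAC vs. NOR (log2 fold change 2.04 ± 0.266, FDR 0.00405) and fell both with amiloride (AM vs. CAC, -1.65 ± 0.205, FDR 0.00762, or 0.0109 without AM replicate 1) and with the knock-down (KD vs. CAC, -1.72 ± 0.16, FDR 0.0443), where it was the 1 gene of all that passed. Cebpd, a C/EBP factor, rose by 2.76 ± 0.395 in CAC (FDR 0.00522) and fell by 2.35 in AM vs. CAC (FDR 0.0032, or 0.0185 without AM replicate 1), and 3 of 4 KD mice had 33.4 to 63.2 CPM while KD replicate 2 had 325 CPM. The other 6 that rose were Osmr (1.63), the oncostatin M receptor, Il1b (2.78), Il1r1 (0.72), Tnfrsf1a (0.61), Nfkbia (0.88), and Stat3 (0.93), none of which passed in AM vs. CAC or KD vs. CAC. All 6 had negative values in both, from -0.84 (FDR 0.107) and -0.74 (FDR 0.36) for Osmr to -0.09 and -0.28 for Tnfrsf1a, and every AM mouse lay below every CAC mouse in Osmr. Stat3 measured 99.6 ± 4.38 CPM in NOR and 191 ± 71 CPM in CAC. Socs3, which STAT3 induces and which restrains it, was at 28.3 ± 18 and 43.9 ± 25.5 CPM (FDR 0.459), and Cebpb had an FDR of 0.215. Il6 itself was at 0.339 CPM or less in all 16 mice.

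Of 22 receptors and partners of the members, 20 were tested in CAC vs. NOR. Tlr4, to which LBP delivers lipopolysaccharide, rose by 0.86 ± 0.213 (FDR 0.0324), and its partner Cd14 was at 1.18 ± 0.455 (FDR 0.124). Itgam, a chain of the receptor for cleaved C3, rose by 1.23 ± 0.319 (FDR 0.0381) and fell by 1.13 in AM vs. CAC (FDR 0.0268), with a value of -1.01 and an FDR of 0.0643 without AM replicate 1, where the groups still did not overlap. Tfrc, the transferrin receptor, had a log2 fold change of -1.93 ± 0.351 in CAC vs. NOR (FDR 0.0117), from 165 ± 27.8 CPM in NOR to 43.5 ± 23.5 CPM. Slc22a17, the receptor for lipocalin-2, measured 5.45 ± 0.367 CPM in NOR and 3.67 ± 0.735 CPM in CAC (FDR 0.0629).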

How the data were processed

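Gastrocnemius poly(A) RNA-seq of 16 mice in 4 groups was used. The raw counts per gene and the FPKM values were made and deposited by the authors. The submitters' processing notes name fastp, Bowtie2, HISAT2, StringTie 1.3.1, and the builds mm9 and GRCm38, with no role for each; the counting tool and strandedness are not given in the sources used here, so reads of overlapping antisense genes cannot be told apart. From the deposited counts, edgeR 4.0.16 (R 4.3.3) was run with TMM scaling, its expression filter (minimum count 10, total 15), and the quasi-likelihood test on the 8 libraries of each comparison, with Benjamini-Hochberg adjustment over all genes tested, and genes were called where the FDR did not exceed 0.05 and the levels differed by at least 1.5-fold (0.667 or lower for a fall). The authors' own test, NOISeq, was not used here. FPKM served only for levels between genes, and log2 CPM used a prior count of 2. The labels' replicates are separate mice.

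Members, gene lists, and tests were chosen with earlier results of these data known. The named genes were the 8 members, the 3 genes most like each of them by Pearson's r over genes with a mean of at least 1 CPM, the called and the 5 most abundant other acute-phase genes, Serpina3 paralogs with a mean of at least 1 CPM, called genes of the pathway and receptor lists, and a few fixed ones (Il6, Stat3, Socs3, Cebpb, Cebpd, Slc22a17, Tlr4, Cd14). Scripts were tested on simulated data. Alternatives were DESeq2 1.42.0, limma-voom (limma 3.58.1), scaling by RLE or by total counts, no count filter, strain or replicate number as a term, all 16 libraries in 1 fit, each label alone, leaving out each mouse, and, chosen after seeing the data, leaving out the libraries low in lymphocyte markers or in Pttg1. Promoters came from RefSeq and gene positions from GENCODE M21. Intervals and floors cover counting error only.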

Additional observations from a re-analysis of the deposited data

Results flagged for a closer look

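In groups of 4 mice, 1 value lay far from the other 3 in 4 of the 32 combinations of member and group, by Dixon's 95% criterion, which chance meets in about 1 of 20 groups. CAC replicate 4 stood apart for Lcn2 (139 CPM, next 30.3 CPM) and for Serpina3n (301 CPM, next 73.8 CPM). KD replicate 2 stood apart for Lrg1 (187 CPM, next 105 CPM), and NOR replicate 1 for Cp (22.9 CPM, next 35.6 CPM). CAC replicate 4 belongs to the 4 libraries with low Pttg1, and all 3 mice are among the 5 libraries low in lymphocyte markers. Without CAC replicate 4 the calls of Saa3, Lcn2, and Lrg1 in CAC vs. NOR and of Saa3 in AM vs. CAC remained, while the log2 fold change in CAC vs. NOR went from 4.65 to 3.54 for Lcn2 and from 2.33 to 1.4 for Serpina3n.

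In AM vs. CAC every C57BL/6-labelled AM mouse lay above, and every BALB/c-labelled AM mouse below, the mean of the CAC mice with the same label for Hp, Cp, and C3. The interaction was 2.91 for Hp, 1.64 for Cp, and 2.07 for C3 on the log2 scale (C57BL/6 minus BALB/c), with FDRs of 0.34, 0.232, and 0.295 by edgeR, none of which passed. In that test 12.4% of all genes had an unadjusted p of at most 0.05.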

How the results depend on the processing

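Saa3, Lcn2, and Lrg1 kept a positive sign in CAC vs. NOR under all alternatives, and Saa3 a negative one in AM vs. CAC and KD vs. CAC. Against 3 members called in CAC vs. NOR, DESeq2 called 6, the labelled strain as a covariate 5, and the BALB/c-labelled mice alone 0. limma-voom called 2 and lost Saa3 (FDR 0.136). Against 1 in AM vs. CAC, 0 were called by limma-voom (of 553 genes in all) and without the lymphocyte-low libraries (of 18), and 0 with the replicate block, in the C57BL/6-labelled or BALB/c-labelled mice alone, and without the Pttg1-low libraries, where 0 genes in all were called. Against 0, DESeq2 called 1 in KD vs. CAC, 2 in AM vs. NOR, and 1 in KD vs. NOR, among 329, 70, and 31 genes, and all 16 libraries in 1 fit called 1 in KD vs. CAC, among 145. The replicate block called 4 in CAC vs. NOR. Same-numbered mice did not deviate together (r over 0.1 in 6 of 24 pairs, from -0.635 to 0.599), so the numbers were not taken as pairs. Leaving out 1 mouse gave 2 to 4 members in CAC vs. NOR (2 without NOR replicate 3, where Lcn2 had an FDR of 0.0513, and 4 without CAC replicate 3, with Lbp), 1 in AM vs. CAC, and 0 elsewhere. The strain interaction gave 0 members under each setting run. The causes of these changes were not tested, except that 2 against 2 mice leaves fewer samples.

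Signs turned for values that had not passed. In the BALB/c-labelled mice alone C3 became -0.61 (AM vs. CAC), -0.1 (AM vs. NOR), and -0.58 (KD vs. NOR), Cp -0.11 (KD vs. NOR), Hp -1.14 (AM vs. KD) and -0.44 (AM vs. NOR), Lbp -0.28 (AM vs. CAC), and Lrg1 -0.12 (AM vs. KD). In the C57BL/6-labelled mice alone C3 became 0.73, Cp 0.18, and Lbp 0.14 in KD vs. CAC, Cp 0.72, Hp 1, Lrg1 0.02, and Serpina3n 0.47 in AM vs. CAC, and Lcn2 -0.01 in AM vs. KD. In KD vs. NOR, limma-voom gave C3 -0.3 and Hp -0.07, and the replicate block C3 -0.46, Hp -0.1, and Serpina3n -0.02. Without the Pttg1-low libraries C3 became -0.61 (KD vs. NOR), Hp 0.25 (AM vs. CAC), 0.26 (KD vs. CAC), and -0.01 (AM vs. KD), Lbp -0.15 (AM vs. CAC), and Lcn2 -0.56 and Lrg1 -0.15 (AM vs. KD). Without the lymphocyte-low libraries C3 became 0.33, Hp 0.75, Lbp 0.32, Lcn2 0.11, and Serpina3n 0.54 in KD vs. CAC, Serpina3n 0.24 in AM vs. CAC, and C3 -0.13, Hp -0.83, Lcn2 -0.5, and Serpina3n -0.3 in AM vs. KD. Leaving out 1 mouse gave ranges across 0 in AM vs. CAC for Serpina3n (-1.07 to 0.15), Hp (-0.92 to 0.25), Cp (-0.34 to 0.12), and Lbp (-0.07 to 0.62), in KD vs. CAC for Hp (-1.81 to 0.25) and C3 (-1.02 to 0.07), in KD vs. NOR for Hp (-0.61 to 1.18) and C3 (-0.61 to 0.46), and in AM vs. KD for Lcn2 (-0.34 to 0.4), Hp (-0.36 to 1.19), and Lrg1 (-0.04 to 0.38).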
